A study of Mus musculus with 6 samples.

Results

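The genes described here are 112 of the 57180 rows of a deposited table of estimated RNA-sequencing counts. They are the rows annotated to the KEGG Lysosome pathway, leaving out cathepsins, solute carriers and Lipa, Cd63, Acp5 and Atp6v0d2. The pathway has 135 rows in the table, so 23 were left out. The cells were macrophages that had been grown from the bone marrow of wild-type mice, 6 to 8 weeks of age, by 7 days of culture with M-CSF at 20 ng/mL. One group then received IL-4 at 20 ng/mL, a cytokine of alternative macrophage activation, for 24 h. The other group received CGRP, a neuropeptide of sensory nerves, in addition to IL-4 for the same time. Each group had 3 libraries, and the 6 libraries include no group without IL-4.

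Lysosomes are acidic compartments in which macrophages degrade what they engulf. Soluble hydrolases reach them with a mannose 6-phosphate tag, which receptors in the Golgi recognise and load into clathrin-coated vesicles with the help of adaptor complexes. A proton pump, the vacuolar ATPase, acidifies the lumen, and heavily glycosylated membrane proteins line the inner face. Many lysosomal genes share a promoter element named CLEAR, bound by TFEB and related factors of the MiT family. The label covers more than proteins of the lysosome itself, because the pathway also holds clathrin, adaptors and sorting receptors of the Golgi and endosomes.

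Of the 112 genes, 101 had enough counts to be tested. The other 11 included 8 with a count of 0 in all 6 libraries, namely Lamp3, Dnase2b, Psapl1, Atp6v0a4 and the hyaluronidases Hyal4, Hyal5, Hyal6 and Spam1. The remaining 3, Hyal3, Ap1m2 and Ap3b2, had between 0 and 6 counts per library.

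Promoter sequences were compared for shared elements. Windows of 250 bases before to 50 bases after a gene start were matched for 89 of the 112 genes by symbol in RefSeq (GRCm38.p6). The full CLEAR sequence, which is CACGTG with GT before it and AC after it and reads the same on both strands, lay in a window of 2 of these 89 genes (2.25%), Cln3 and Igf2r, against 0.835% of 9701 tested genes with a window. Its core CACGTG alone, an E-box that every full CLEAR sequence also contains, lay in a window of 20 genes (22.5%), against 11.8% of the 9701. The cAMP response element TGACGTCA, also a palindrome, lay in 2 genes (2.25%), against 3.5%. Counted by window, CACGTG was in 20.0% of 105 lysosome gene windows and 7.15% of all 32851 windows.

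Below are the first 251 bases of the windows of both genes with the full element, and of Cd164, one of 4 genes that changed with CGRP (described next) and the only one of those matched whose window holds CACGTG. Capitals mark the full CLEAR sequence and CACGTG, and the last base is the gene start. The Cln3 stretch is chr7:126583236-126583486 on the minus strand, Igf2r is chr17:12769706-12769956 on the minus strand, and Cd164 is chr10:41519250-41519500 on the plus strand, all in GRCm38.p6. The full element begins 123 bases before the start of Cln3 and 9 bases before that of Igf2r, and CACGTG begins 87 bases before the start of Cd164.
Cln3: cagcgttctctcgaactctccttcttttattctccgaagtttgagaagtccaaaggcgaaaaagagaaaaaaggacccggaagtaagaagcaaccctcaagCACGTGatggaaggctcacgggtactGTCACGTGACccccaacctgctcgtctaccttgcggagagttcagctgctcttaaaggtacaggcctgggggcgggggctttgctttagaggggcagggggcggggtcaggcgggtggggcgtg
Igf2r: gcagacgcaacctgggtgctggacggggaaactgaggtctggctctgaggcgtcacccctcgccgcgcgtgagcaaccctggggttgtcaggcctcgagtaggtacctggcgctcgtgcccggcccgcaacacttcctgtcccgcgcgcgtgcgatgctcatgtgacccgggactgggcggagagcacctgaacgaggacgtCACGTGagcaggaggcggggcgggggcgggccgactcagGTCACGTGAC
Cd164: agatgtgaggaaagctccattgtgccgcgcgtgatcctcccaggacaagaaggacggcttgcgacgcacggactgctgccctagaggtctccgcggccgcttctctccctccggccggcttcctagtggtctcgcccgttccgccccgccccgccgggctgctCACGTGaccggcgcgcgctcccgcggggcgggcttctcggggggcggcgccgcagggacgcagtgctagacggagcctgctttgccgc

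Among the 79 tested genes with a window, the 20 that hold CACGTG had a median log2 fold change of 0.02 and the other 59 of -0.01. The log2 fold change (IL-4+CGRP minus IL-4, with its standard error, SE) was 0.06 ± 0.05 for Cln3, a lysosomal membrane protein, and -0.14 ± 0.06 for Igf2r, the large mannose 6-phosphate receptor. Neither passed the edgeR test (adjusted p = 0.63 and adjusted p = 0.29). Of the genes that changed, Ap1b1 and Psap had windows without any of the 3 elements.

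The comparison asks what adding CGRP did to lysosome genes in IL-4-treated macrophages. Most were close to the same level in both groups. Cd164 and Ap1b1 rose 1.31-fold and Psap fell 1.09-fold. In all, 4 genes of the 101 were past the edgeR threshold (adjusted p under 0.05 over all 13260 genes tested). The estimated change was smaller than 1.2-fold for 97 of the 101, against 10671 of the 13260. The 4 calls are 3.96% of the 101, against 3.85% of all tested genes. In each direction there were 2 calls (1.98%), against 2.32% higher and 1.54% lower over all tested genes, so the share called was near the background. Scaling by library totals alone gave 3 higher and 1 lower among the 101, and 354 higher and 143 lower among all tested genes in place of 307 and 204.

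The median log2 fold change of the 101 genes was -0.011, and that of all tested genes -0.0042. The highest value was 0.39, for Ap1b1. Log2 fold changes were above 0 for 46 genes and below 0 for 55. The precision was high, with a median SE of 0.06 on the log2 scale against 0.10 for all tested genes. These genes were also more abundant, with a median TPM (counts scaled to gene length and library size) of 103 with IL-4, against 15.7. The 95% interval of the change lay inside 1.5-fold in either direction for all 101 genes, inside 1.3-fold for 90 and inside 1.2-fold for 75. The groups did not overlap for 28 genes (12 higher and 16 lower), which is 27.7% against 21% of all tested genes. At an unadjusted p under 0.05 there were 10 higher (9.9%, against 8.61%) and 12 lower (11.9%, against 7.21%).

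**Figure D1:**
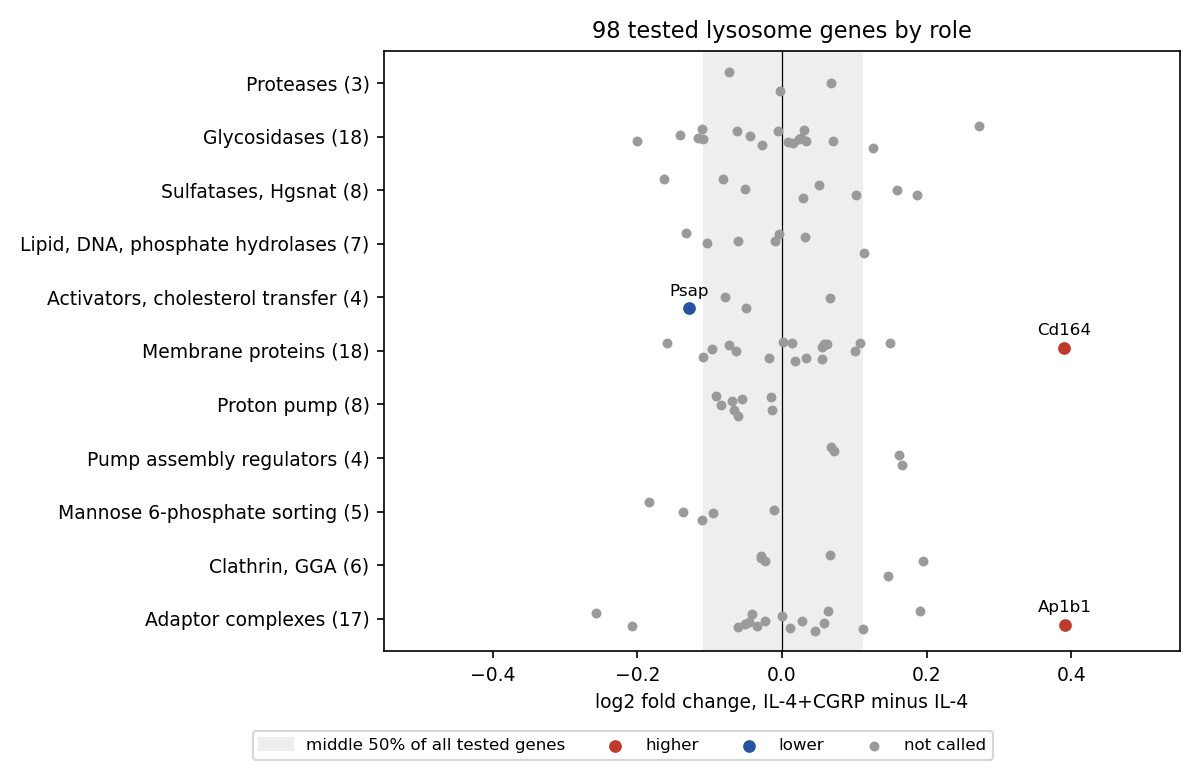
Log2 fold change (IL-4+CGRP minus IL-4) of 98 of the 101 tested lysosome genes, 1 point per gene, in rows by role with the number of genes shown in brackets. Red and blue points passed the edgeR test as higher and lower, and the grey band spans the middle 50% of all tested genes; Cd164 and Ap1b1 lie farthest right.

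The rule itself bears on this count. Of the 23 pathway rows it leaves out, 20 were tested, and 1 of those rose and 7 fell. With them, 3 of 121 pathway genes were higher (2.48%, against 2.32%) and 9 were lower (7.44%, against 1.54%). The share near the background therefore holds for the genes kept and not for the whole pathway.

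All 6 libraries were of similar depth, between 20088895 and 24060444 estimated counts. Summed counts of 9 macrophage markers were between 12580 and 12748 CPM (counts scaled to library size) with IL-4 and between 12965 and 13224 with CGRP as well. These sums did not overlap, and 2 of the 9 markers were called higher (22.2%, against 2.32% of all tested genes) and 0 lower. Of the other cell type lists, 9 dendritic cell markers summed to between 172 and 179 CPM with IL-4 and between 90.9 and 98.2 with CGRP. A single marker, at a mean of 149 CPM with IL-4, held most of that sum, so it mainly follows 1 gene. The dendritic markers Itgax and Siglech fell and Ccr7 rose. Neutrophil (8 markers), T or NK cell (6), B cell (5) and osteoclast (6) sums, all under 120 CPM, overlapped between the groups, with Ly6g and Calcr at 0 in every library. Of the 4 osteoclast markers tested, 2 fell, Ocstamp at -1.80 and Dcstamp at -1.24 on the log2 scale (edgeR adjusted p = 2.2e-04 and adjusted p = 0.0028), while Ctsk and Nfatc1, which hold most of that sum, did not pass. Mast cell sums (6 markers) were between 5.41 and 6.05 CPM with IL-4 and between 4.37 and 5.24 with CGRP. Sums for 6 stromal markers were between 43.3 and 47.4 CPM with IL-4 and between 48.9 and 54.7 with CGRP. The part of these marker differences in the lysosome genes was not tested, and in such bulk samples fewer cells of a type and less RNA per cell cannot be told apart. The labels do not tell whether replicates came from separate mice or dishes. The p-values therefore cover only the spread among these libraries, which could be technical. IL-4+CGRP replicate 2 stood apart: on the first principal component of all tested genes (37.6% of variance) it lay at -0.17, the other libraries of its group on the positive side (the highest at 27.0) and the IL-4 libraries from -26.0 to -11.2.

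Psap (ENSMUSG00000004207) encodes the precursor of the saposins, small proteins that present sphingolipids to their hydrolases. It was the most abundant of these genes per length, at 16309 TPM (counts scaled to gene length and then to library size) with IL-4. The next were Cd68, a macrophage membrane glycoprotein, at 4843 TPM, and Lgmn, the asparagine-specific protease legumain, at 4212 TPM. Psap measured 19222, 20174 and 19189 CPM in IL-4 replicates 1 to 3, and 17988, 17668 and 17947 CPM in IL-4+CGRP replicates 1 to 3. All 3 libraries with CGRP were below all 3 with IL-4. The change was -0.13 ± 0.03 (SE) on the log2 scale (edgeR adjusted p = 0.045), with a 95% interval from -0.20 to -0.06. The call ended in 11 of 17 alternatives, where the adjusted p reached 0.32, among them DESeq2, limma-voom and every fit without a single library except that without IL-4+CGRP replicate 2.

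Together the 112 genes made up 53011, 54918 and 53380 CPM in the IL-4 libraries and 52662, 51395 and 52329 CPM in the IL-4+CGRP libraries, lower with CGRP in every library. As plain shares of each library's counts, without scaling factors, they were 5.215%, 5.43% and 5.32% with IL-4. With CGRP the shares were 5.35%, 5.14% and 5.28%, which overlapped those with IL-4. Without Psap the sums were 33790, 34744 and 34190 CPM against 34674, 33727 and 34382 CPM, and the groups overlapped. Leaving out that single abundant transcript thus ended the separation in CPM, and the plain shares did not separate the groups even with Psap.

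The other genes of this role transfer lipids. Npc1 and Npc2, which move cholesterol out of the lysosome, had log2 fold changes of 0.07 ± 0.06 and -0.05 ± 0.07 (SE). Gm2a, the activator that presents GM2 ganglioside for its breakdown, measured -0.08 ± 0.06 (SE). None of the 3 passed the edgeR test.

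Hexa, a glycosidase that acts on gangliosides, measured 948, 962 and 923 CPM with IL-4 and 892, 864 and 859.6 CPM with CGRP. The groups did not overlap, but the log2 fold change of -0.12 ± 0.04 (SE) did not pass (edgeR adjusted p = 0.17). Per length Hexa was at 1050 TPM with IL-4.

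The 20 tested glycosidases, which take sugar chains apart, had a median log2 fold change of -0.0088. Among them, Hyal1, a hyaluronidase, was at 28.7, 30.2 and 31.8 CPM with IL-4 and 36.8, 34.7 and 38.1 CPM with CGRP, above every IL-4 library. The log2 fold change of 0.27 ± 0.07 (SE) lay just outside the threshold (edgeR adjusted p = 0.055) and passed in 7 of 17 alternatives.

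Fuca1, the lysosomal alpha-fucosidase, measured 126, 119.9 and 122 CPM with IL-4 and 101, 114 and 105 CPM with CGRP (log2 fold change -0.20 ± 0.06, SE; edgeR adjusted p = 0.10). Its CGRP libraries were all below the IL-4 libraries, with replicate 2 nearest to them. Man2b1, an alpha-mannosidase, had a log2 fold change of -0.11 ± 0.04 (SE; edgeR adjusted p = 0.22). Glycosidases with estimates close to 0 included Gaa (acid alpha-glucosidase) at -0.0049 ± 0.06, Glb1 (beta-galactosidase) at 0.03 ± 0.05 and Gusb (beta-glucuronidase) at -0.04 ± 0.04 (log2 fold change ± SE).

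**Figure D2:**
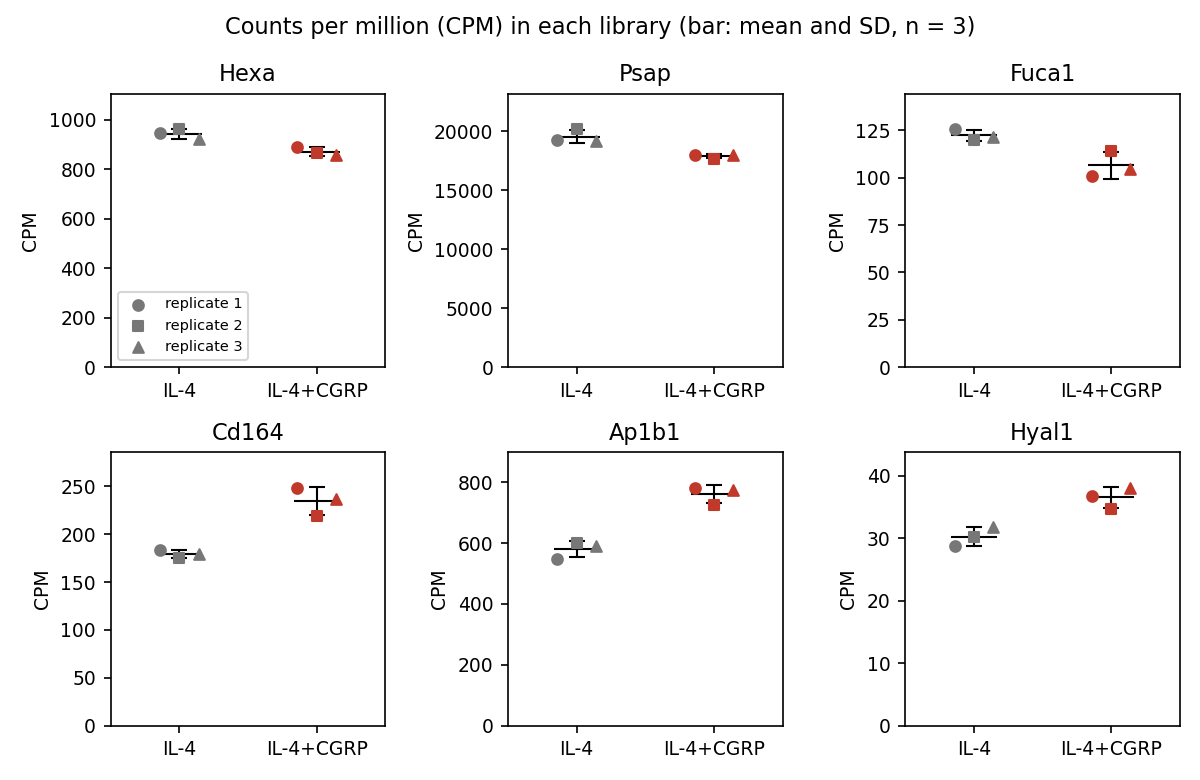
CPM in each library for lysosome genes past the edgeR threshold (Psap, Cd164 and Ap1b1) and for Hexa, Fuca1 and Hyal1, which did not pass. Each point is 1 library, and the shape gives the replicate number. Bars are the mean and SD of 3 libraries, and every axis starts at 0. In all 6 panels the groups do not overlap, which was also a ground for naming Hexa, Fuca1 and Hyal1.

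Among the sulfatases and heparan sulfate enzymes, 0 of 9 passed the edgeR test, and DESeq2 and limma-voom also called 0. At an unadjusted p under 0.05, 2 were higher (22.2%, against 8.61% of all tested genes) and 1 lower (11.1%, against 7.21%). Hgsnat, the membrane acetyltransferase that caps heparan sulfate during its breakdown, measured 70.1, 71.1 and 73.9 CPM with IL-4 and 80.8, 78.6 and 85.4 CPM with CGRP. Its groups did not overlap, and the log2 fold change was 0.19 ± 0.05 (SE; edgeR adjusted p = 0.095). Sgsh, the sulfamidase that acts on the same chains, measured 98.7, 109 and 105 CPM with IL-4 and 115, 113 and 121 CPM with CGRP, again without overlap, and differed by 0.16 ± 0.06 on the log2 scale (SE; edgeR adjusted p = 0.19). Arsb, which removes sulfate from dermatan and chondroitin sulfate, was on the other side at -0.16 ± 0.07 (SE; edgeR adjusted p = 0.31).

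Of the 7 hydrolases of lipids, DNA and phosphate esters 0 passed, and 0 were called by DESeq2 or limma-voom. At an unadjusted p under 0.05, 1 was lower (14.3%, against 7.21% of all tested genes). Dnase2a, the acid nuclease that digests engulfed DNA, measured 150.2, 148 and 152 CPM with IL-4 and 134, 141 and 134 CPM with CGRP. The libraries with CGRP were lower in all 3 cases, at a log2 fold change of -0.13 ± 0.05 (SE; edgeR adjusted p = 0.22). Asah1 (acid ceramidase), Smpd1 (acid sphingomyelinase) and Pla2g15 (a phospholipase) were at -0.06 ± 0.04, 0.03 ± 0.07 and -0.0035 ± 0.04 (SE). Acp2, the lysosomal acid phosphatase, measured -0.01 ± 0.06 (SE). The non-cathepsin proteases Lgmn, Tpp1 and Napsa had log2 fold changes of 0.07 ± 0.04, -0.0028 ± 0.06 and -0.07 ± 0.07 (SE), none of which passed.

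Cd164 (ENSMUSG00000019818), a sialomucin found in endosomes and lysosomes and at the cell surface, measured 183, 175 and 179 CPM in IL-4 replicates 1 to 3 and 249, 219 and 237 CPM in IL-4+CGRP replicates 1 to 3. The lowest library with CGRP was well above the highest with IL-4. The mean rose from 179 ± 3.99 to 235 ± 14.7 CPM (SD, n = 3), or 0.39 ± 0.06 (SE) on the log2 scale (edgeR adjusted p = 0.0022). The 95% interval ran from 0.27 to 0.51, and Cd164 passed in all 17 alternatives, at 0.34 to 0.45.

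In the role of membrane and membrane-associated proteins Cd164 was the only call, 1 of 18 (5.56%, against 2.32% higher over all tested genes), with 0 lower. The median log2 fold change was 0.03. Litaf, which takes part in endosomal sorting, measured 567, 567 and 569 CPM with IL-4 and 603, 616 and 616 CPM with CGRP. The groups did not overlap, though the change was small, at 0.11 ± 0.04 (SE; edgeR adjusted p = 0.19). The abundant membrane glycoproteins Lamp1, Lamp2 and Cd68 had log2 fold changes of 0.06 ± 0.05, -0.06 ± 0.04 and -0.10 ± 0.04 (SE), with edgeR adjusted p = 0.61, 0.52 and 0.27. The calcium channel Mcoln1 measured 0.10 ± 0.06, the cystine exporter Ctns 0.15 ± 0.08 and the hydrolase receptor Scarb2 0.002 ± 0.05 (SE). Entpd4 and Entpd4b are close copies, and reads may be split between them.

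Ap1b1 (ENSMUSG00000009090) encodes the beta subunit of the AP-1 adaptor, which gathers cargo for clathrin-coated vesicles at the trans-Golgi network and endosomes. It measured 549, 599 and 592 CPM in IL-4 replicates 1 to 3 and 782, 726 and 774 CPM in IL-4+CGRP replicates 1 to 3. All libraries with CGRP were above all those with IL-4. The mean rose from 579.9 ± 26.9 to 761 ± 30.6 CPM (SD, n = 3), or 0.39 ± 0.05 (SE) on the log2 scale (edgeR adjusted p = 8.2e-04). The 95% interval ran from 0.28 to 0.50, and Ap1b1 passed in all 17 alternatives, at 0.35 to 0.42.

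The partners of Ap1b1 in the AP-1 complex did not pass. The gamma subunits Ap1g1 and Ap1g2 had log2 fold changes of 0.06 ± 0.07 and 4.6e-04 ± 0.07, the mu subunit Ap1m1 -0.06 ± 0.06, and the sigma subunits Ap1s1, Ap1s2 and Ap1s3 -0.21 ± 0.09, -0.05 ± 0.10 and 0.01 ± 0.18 (SE). Of the 17 tested adaptor subunits, 1 rose (5.88%, against 2.32%) and 0 fell, with a median log2 fold change of 4.6e-04. Subunits of AP-3, which carries membrane proteins to lysosomes, ranged from Ap3s1 at -0.26 ± 0.09 to Ap3m2 at 0.06 ± 0.06 (SE).

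Clathrin and the GGA adaptors, which bind the sorting receptors, had 0 of 6 calls, and 0 calls by DESeq2 or limma-voom. At an unadjusted p under 0.05, 2 were higher (33.3%, against 8.61% of all tested genes). The clathrin heavy chain Cltc measured 1234, 1202 and 1256 CPM with IL-4 and 1434, 1243 and 1407 CPM with CGRP, where replicate 2 lay inside the IL-4 range. Its log2 fold change was 0.15 ± 0.05 (SE; edgeR adjusted p = 0.19). Gga3 measured 0.19 ± 0.07 (SE; edgeR adjusted p = 0.21).

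All 5 genes of mannose 6-phosphate sorting had log2 fold changes below 0, as far as -0.18, and 0 passed. Under scaling by library totals alone, 4 of the 5 were below 0. At an unadjusted p under 0.05, 2 were lower (40%, against 7.21% of all tested genes), and DESeq2 and limma-voom called 0. The small receptor M6pr measured 375, 383 and 370.5 CPM with IL-4 and 352, 351 and 342 CPM with CGRP, which did not overlap (log2 fold change -0.11 ± 0.04, SE; edgeR adjusted p = 0.23). Igf2r, the large receptor with the full CLEAR sequence, measured 296, 299.9 and 322 CPM with IL-4 and 288, 256 and 291 CPM with CGRP. Its CGRP libraries were also all below the IL-4 libraries, by a narrow margin. Sort1 (sortilin, a further sorting receptor) was at -0.18 ± 0.09, and the tagging enzymes Gnptab and Gnptg at -0.01 ± 0.09 and -0.09 ± 0.07 (SE).

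The 8 tested subunits of the proton pump were all slightly lower in estimate, between -0.09 and -0.01 (log2), and 0 passed. Under scaling by library totals alone, or with the length trend removed, 6 of the 8 were below 0. At an unadjusted p under 0.05 1 was lower (12.5%, against 7.21% of all tested genes), and DESeq2 and limma-voom called 0. Tcirg1, the a3 subunit of the membrane sector, measured 843, 895 and 861 CPM with IL-4 and 808, 809 and 822 CPM with CGRP, which did not overlap (log2 fold change -0.09 ± 0.04, SE; edgeR adjusted p = 0.30). Atp6v0c, the proton-carrying ring subunit, measured 1221, 1101 and 1094 CPM against 1030, 1219 and 1008 CPM. IL-4 replicate 1 and IL-4+CGRP replicate 2 stood together at the top, and the groups overlapped.

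The 4 further genes Dmxl1, Dmxl2, Wdr7 and Ncoa7 regulate assembly of the pump rather than belong to it. Their estimates were all above 0 under the 4 scalings tried, which shift all genes by nearly the same amount. With the length trend (below) removed, or without IL-4+CGRP replicate 3, 3 of the 4 were above 0. Wdr7 and Dmxl2 form the rabconnectin complex. Wdr7 measured 85.1, 90.1 and 90.7 CPM with IL-4 and 103, 96.6 and 98.7 CPM with CGRP, without overlap (log2 fold change 0.17 ± 0.05, SE; edgeR adjusted p = 0.14). Dmxl2 was at 0.16 ± 0.07, its paralogue Dmxl1 at 0.07 ± 0.08 and Ncoa7 at 0.07 ± 0.09 (SE). Of these 4 genes 0 passed the edgeR test, and DESeq2 and limma-voom called 0. At an unadjusted p under 0.05, 2 were higher (50%, against 8.61% of all tested genes). They are long, with a median length of 8874.5 bases against 2706 for the 101 genes.

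**Figure D3:**
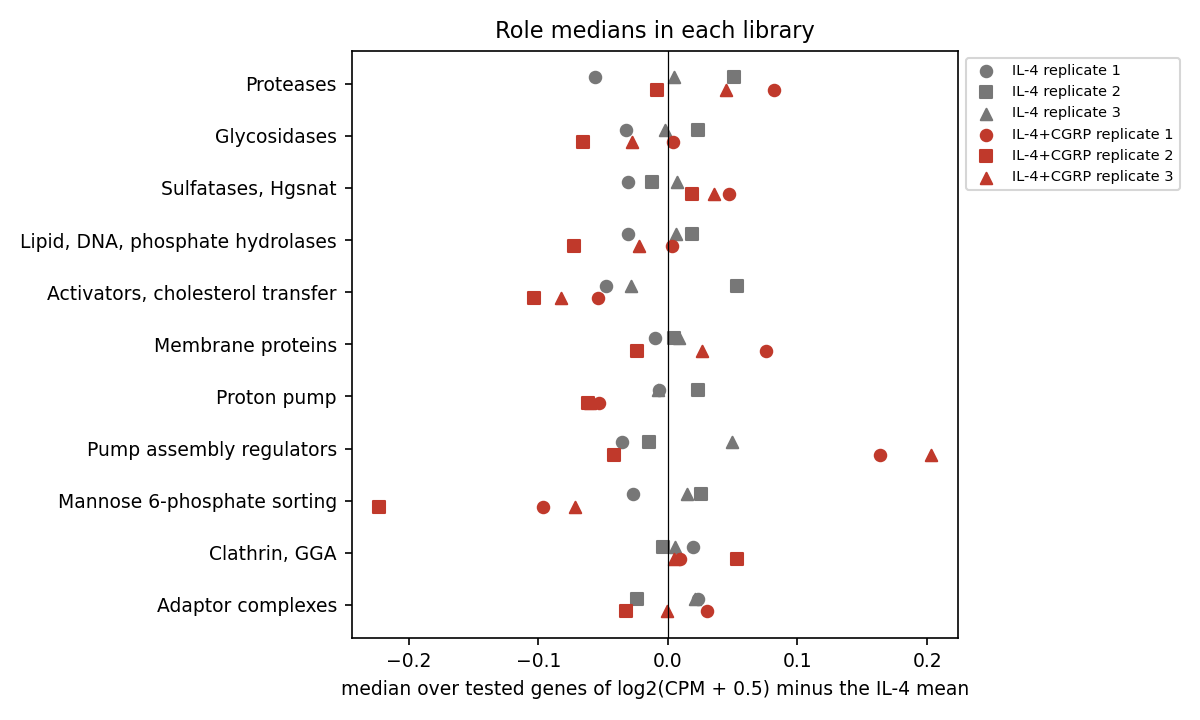
For each role, the median over its tested genes of log2(CPM + 0.5) minus the IL-4 mean, 1 point per library (grey, IL-4; red, IL-4+CGRP; shapes give the replicate). All 3 red points lie left of the grey ones in the proton pump, mannose 6-phosphate sorting and activator rows, and right of them in the sulfatase row; IL-4+CGRP replicate 2 lies apart from the other red points in the sorting and pump assembly rows.

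Gene length moved with the libraries. Across the 101 genes, the deviation of a library from the mean of all 6 correlated with log2 gene length at a Spearman rho of -0.37 in IL-4 replicate 1 and -0.43 in IL-4+CGRP replicate 2, against 0.48 in both IL-4+CGRP replicates 1 and 3. IL-4 replicates 2 and 3 gave -0.08 and 0.03. These are descriptions across genes that share the same libraries, and genes are not independent replicates. Over all 13260 tested genes the values had the same signs in those 4 libraries (-0.31, -0.36, 0.30 and 0.34). The log2 fold change itself correlated with length across the 101 genes at a rho of 0.29, and across all 13260 tested genes at 0.2.

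**Figure D4:**
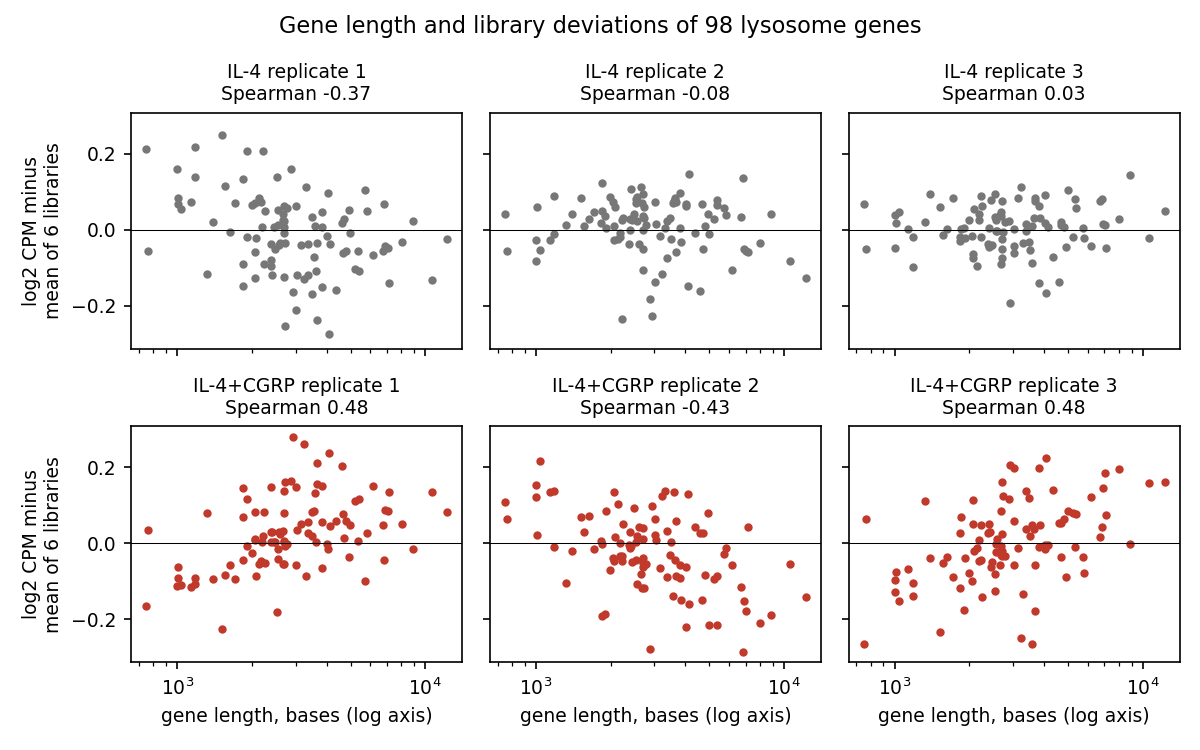
Gene length in bases (log axis) against the log2 CPM of 98 of the 101 tested lysosome genes minus its mean over 6 libraries, 1 panel per library, with Spearman values over all 101. Short genes sit high in IL-4 replicate 1 and IL-4+CGRP replicate 2, and low in IL-4+CGRP replicates 1 and 3.

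Without IL-4+CGRP replicate 2, 9 of the 101 genes were higher and 9 lower, against 6.78% and 7.04% of all genes tested in that fit. The 18 included the same 2 higher and 2 lower genes as with all libraries. The added higher genes were Cltc, Dmxl2, Gga3, Hgsnat, Hyal1, Sgsh and Wdr7, and the added lower genes Ap1s1, Ap3s1, Atp6v0c, Cd68, Dnase2a, Fuca1 and Npc2. In that fit the log2 fold change was 0.21 ± 0.04 for Cltc and -0.36 ± 0.06 for Ap3s1 (edgeR adjusted p = 8.8e-04 and adjusted p = 0.0011). The correlation with length rose to a rho of 0.45, and over all genes tested in that fit it was 0.31. When the length trend of each library was removed instead, with all 6 libraries kept, 4 were higher (Cd164, Ap1b1, Hyal1 and Hgsnat) and 6 lower (among them Psap, Ap3s1, Fuca1, Igf2r and Man2b1), against 3.2% and 3.56% of all tested genes. In that fit Cd164 was at 0.37 and Ap1b1 at 0.36.

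**Figure D5:**
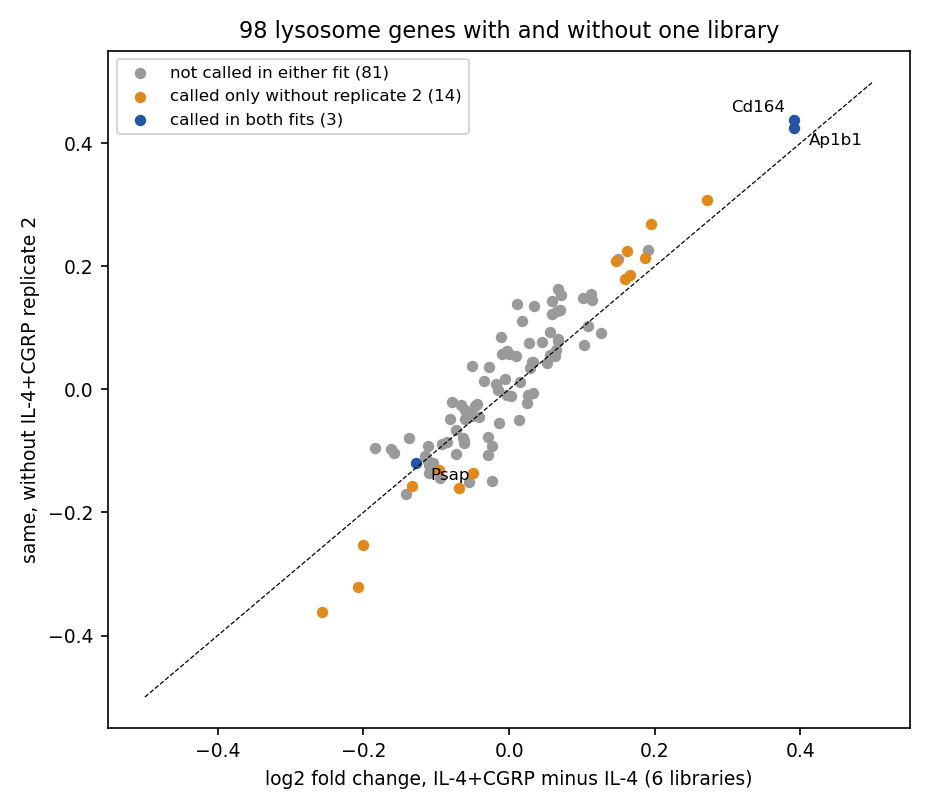
Log2 fold change of 98 of the 101 tested lysosome genes with all 6 libraries (x axis) against that without IL-4+CGRP replicate 2 (y axis); the dashed line marks equal values. The 3 genes shown that were called in both fits are blue, the 14 called only without that library orange, and the other 81 grey.

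Regulators outside the pathway were taken from a list of 20 genes for the MiT factors and lysosomal nutrient sensing, all of them tested, of which 2 rose (10%, against 2.32%) and 0 fell. Tfec, a MiT factor of macrophages, measured 62.7, 61.6 and 56.0 CPM with IL-4 and 84.8, 74.4 and 72.0 CPM with CGRP. The groups did not overlap, and the log2 fold change was 0.36 ± 0.07 (SE; edgeR adjusted p = 0.016). Rragd, a Rag GTPase through which amino acids signal at the lysosome, measured 39.4, 44.5 and 40.5 CPM against 52.3, 50.2 and 49.7 CPM (log2 fold change 0.29 ± 0.06, SE; edgeR adjusted p = 0.028). Again the CGRP libraries were all higher. Leaving out 1 library ended the Tfec call for IL-4 replicates 2 and 3 and IL-4+CGRP replicate 1 (adjusted p = 0.086, 0.12 and 0.093). For Rragd the call ended for IL-4 replicates 1 and 3 and IL-4+CGRP replicates 1 and 3 (adjusted p = 0.13, 0.17, 0.16 and 0.075, edgeR), and with the replicate block. Tfeb was at -0.17 ± 0.06, Tfe3 at -0.08 ± 0.05 and Mitf at -0.01 ± 0.06 (SE), none of which passed.

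In the list of remaining pump subunits, mostly of the ATP-hydrolysing V1 sector, all 9 tested genes had estimates below 0 under the 4 scalings. Changing the scaling shifts all genes by nearly the same amount. With the length trend removed 8 of the 9 were below 0, and without IL-4+CGRP replicate 3 only 6 were. Of the 9 genes 0 passed the edgeR test. Atp6v1c1 came nearest, at 268, 264 and 256.5 CPM with IL-4 and 226, 240 and 229 CPM with CGRP (log2 fold change -0.18 ± 0.05, SE; edgeR adjusted p = 0.062). Its groups did not overlap. At an unadjusted p under 0.05, 3 were lower (33.3%, against 7.21% of all tested genes). DESeq2 called 1, which was not Atp6v1c1 (DESeq2 adjusted p = 0.12), and limma-voom 0. With the length trend removed 3 of the 9 were called lower, against 3.56% of all tested genes. Without IL-4+CGRP replicate 2 it was also 3, against 7.04%. Of 24 genes of traffic from endosomes to lysosomes 0 passed, also 0 at an unadjusted p under 0.05 and 0 by DESeq2 or limma-voom. Vps26a, a retromer subunit, had the smallest p there (log2 fold change -0.11 ± 0.05, SE; edgeR adjusted p = 0.32). Of 22 autophagy genes 0 passed, and 0 were called by DESeq2 or limma-voom. At an unadjusted p under 0.05, 3 were higher (13.6%, against 8.61% of all tested genes) and 3 lower (13.6%, against 7.21%). The smallest p there was that of Uvrag, a regulator of autophagosome and endosome maturation, at 0.19 ± 0.05 (SE; edgeR adjusted p = 0.080).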

How the data were processed

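The authors deposited 1 table of estimated counts per gene for 6 libraries. The tools HISAT2, StringTie and fastp and the genome build GRCm39 are named per the submitters' processing notes. What annotation they used, in which versions, and how reads were counted and by which strand is not given in the sources used here, and antisense or overlapping partners may share reads. From 23.3% to 26.6% of a library's nonzero values were not whole numbers (tolerance 1e-06), and all were rounded, since the test had been planned for whole counts. Apart from the promoter stretches above, given in GRCm38.p6, gene coordinates are not printed, because the reference was of another build than the files.

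Genes kept by filterByExpr (13260, holding 99.9% of counts) were scaled with TMM and compared between the groups, without covariates, by the two-sided quasi-likelihood test of edgeR 4.0.16 with robust dispersions (R 4.3.3). A gene was called at a Benjamini-Hochberg adjusted p under 0.05. Replicates had a common biological coefficient of variation of 8.62%. Each SE was obtained from the fold change and its F statistic. CPM uses TMM-scaled totals, and TPM the authors' gene lengths, deposited in bases. The scripts were tested on simulated data. DESeq2 1.42.0, limma-voom (limma 3.58.1), 3 other scalings, 2 other filters, a dispersion fit that was not robust, a replicate block and leaving out each library were alternatives. A length correction and leaving out IL-4 replicate 1 and IL-4+CGRP replicate 2 together were added after seeing the data.

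The members and lists were chosen with earlier results of these data known. Named genes are those past the threshold, those with an unadjusted p under 0.05 and groups that do not overlap, and the most abundant gene and that of smallest p in each role, or in other lists those past the threshold or of smallest p. Some lysosome genes, counted in all totals, are not reported here by name. Others shown for their role were chosen after their values were seen. Roles of Hyal5, Hyal6, Spam1, Dmxl1, Dmxl2, Wdr7 and Ncoa7 were assigned after the table was read, and Nagpa was counted with the glycosidases.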

Additional observations from a re-analysis of the deposited data

How the results depend on the processing

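Cd164 and Ap1b1 passed in all 17 alternatives. Of 2 lysosome genes called higher, leaving out 1 library gave 2 to 9, no count filter and the removed length trend 4 each, and leaving out both IL-4+CGRP replicate 2 and IL-4 replicate 1 13. Of 2 called lower, leaving out 1 library gave 1 to 9. DESeq2, limma-voom, upper quartile factors, library totals alone, a mean count of at least 50 and the replicate block gave 1 each, in every case without Psap. No count filter gave 5, the removed length trend 6 and leaving out both libraries 13. Calls over all tested genes moved too, from 2.32% higher and 1.54% lower with all libraries. No count filter gave 2.46% and 1.83%, the removed length trend 3.2% and 3.56%, and leaving out both libraries 7.97% and 8.88%. Leaving out 1 library gave 1.03% to 6.78% higher and 0.592% to 7.04% lower.

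The median log2 fold change of the lysosome genes was 0.016 with library totals alone, where that of all tested genes was 0.023, and -0.026 to 0.0092 when 1 library was left out. For the whole pathway, with 3 higher and 9 lower, no count filter gave 5 higher, leaving out both libraries 15 higher and 22 lower, and leaving out 1 library 3 to 11 higher and 2 to 17 lower. Upper quartile factors, a mean count of at least 50, DESeq2 and limma-voom gave 5 lower each, library totals alone 4 and the replicate block 2.

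In the other lists together, with 2 higher and 0 lower, no count filter gave 4 higher and 4 lower, the replicate block 1 higher, DESeq2 1 lower, the removed length trend 5 lower, leaving out both libraries 9 higher and 13 lower, and leaving out 1 library 0 to 7 higher and 0 to 11 lower. Calls over all tested genes also moved between these fits, and the cause of these moves was not tested. Fewer libraries also change how the spread is estimated.

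Among named genes that did not pass with all libraries, signs turned for Acp2 (0.018 with library totals alone, 0.024 without both libraries, and -0.058 to 0.058 when 1 library was left out) and Dmxl1 (-0.025 with the length trend removed). Of 459 values of 27 named genes over the alternatives, 394 kept their direction and side of the threshold. Most of these genes were not called with all libraries, and they count as kept when they stay uncalled. Among the named genes called with all libraries, Cd164 and Ap1b1 kept the call in 17 of 17 alternatives. Tfec kept it in 14, Rragd in 12 and Psap in 6.

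The labels do not say whether the replicate numbers pair the libraries. Deviations of same-numbered libraries correlated at -0.19, -0.18 and 0.13 for numbers 1 to 3, and not every library correlated best with its own number. These deviations were taken from means of only 3 libraries per group, so they cannot decide whether libraries were paired. With the replicate block 2 lysosome genes were higher and 1 lower, the Psap and Rragd calls ended, and Cd164, Ap1b1 and Tfec passed. Genes of few counts are the least precise, with an SE of 0.18 for Ap1s3 at 3.54 CPM.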
